A study of Mus musculus with 6 samples.

Results

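The R-spondins Rspo1, Rspo2, Rspo3 and Rspo4, their receptors Lgr4 and Lgr6, and the ubiquitin ligases Znrf3 and Rnf43, which R-spondins act on, were examined in cancer-associated fibroblasts (CAFs) of the mouse colon. The 8 genes were found by their symbols among the 49548 genes of the expression table. Of these 8 genes, the transcripts of Lgr4, Znrf3 and Rnf43 were called lower in Col6a1+ than in Col6a1- CAFs. The 4 R-spondins had only 0 to 13 normalised counts in any library. Between the groups, the lower members went the same way as markers of epithelial cells and of some other cell types. Within the Col6a1- libraries, the order of Rnf43 was opposite to that of the summed epithelial markers, while Lgr4 was highest where that sum was highest. These orders were picked out after the values were seen and were not tested. All 3 calls were lost in a fit that paired libraries by their replicate number, but that fit called no gene of the table. Limited to genes that averaged 10 or more normalised counts, it called all 3 as lower. When 1 of the 6 libraries was left out in turn, Lgr4 was called in 0, Znrf3 in 1 and Rnf43 in 4 of the fits. Without a filter on low values all 3 calls were lost.

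R-spondins are secreted proteins that bind the receptors LGR4, LGR5 and LGR6 together with the membrane ligases ZNRF3 and RNF43. The ligases mark Frizzled receptors for removal from the cell surface, and R-spondins clear the ligases, so that more Frizzled stays at the membrane and Wnt/β-catenin signalling rises. Znrf3 and Rnf43 are themselves targets of β-catenin and act as negative feedback, and in the intestine the crypt epithelium receives R-spondins from stromal cells around and below it.

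RNA of sorted CAFs was sequenced from the 3′ ends of its transcripts in 6 libraries, 3 from GFP+ cells (Col6a1+ CAFs) and 3 from Tomato+ cells (Col6a1- CAFs). Both groups came from the same kind of animal, adult C57/BL6 mice carrying Col6a1-cre and Rosa26-mTmG, in which colonic adenomas were induced with the carcinogen AOM and with DSS, an agent that damages the colonic epithelium. The mTmG reporter switches from Tomato to GFP upon recombination by Cre. GFP is therefore found in every cell in which Col6a1Cre was active or had been active in its ancestors, which in the intestine are mainly PDGFRα-high fibroblasts and perivascular cells. Both groups were sorted after CD45+, CD31+, Ter119+ and EpCAM+ cells were excluded. Within what remained, the Tomato+ group is defined by the absence of recombination. The authors give 3 samples, each from pooled tumors of several mice. GFP+ and Tomato+ libraries may thus come from the same pools and may not be independent.

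Normalised read counts summed to between 3039152 and 3425249 per library. Col6a1+ replicate 1 had the fewest genes detected (14530), and the remaining libraries had 18770 to 20511. Col6a1, the gene whose promoter drives the Cre, had 861, 1287 and 1941 normalised counts in the Col6a1+ libraries and 182, 321 and 102 in the Col6a1- libraries (log2 fold change 2.82, adjusted p = 0.00613, and 0.0983 with the replicate number as a term of the model). All log2 fold changes are Col6a1+ minus Col6a1- CAFs on the scale of log2(normalised count + 1), and adjusted p-values are from limma over 26402 genes, called under 0.05. Of the genes tested, 4.62% were called in either direction and 1.96% were called lower in Col6a1+ CAFs, beside 3 of the 8 members, all of them lower. Another 2.66% were called higher, among them 0 members. When the model held the replicate number as a block (the replicate block), no gene of the table was called (0%), while an unadjusted p under 0.05 was reached by 1851 genes with higher and 2567 with lower levels in Col6a1+ CAFs. Limited to the 13515 genes that averaged 10 or more normalised counts, the replicate block called 1852.

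The sorted cells were not free of epithelial transcripts. Of 12 epithelial markers, 8 were called lower in Col6a1+ CAFs, 0 higher, and the list's median log2 fold change was -2.04, against -0.27 over all genes tested. Their summed level lay between 5820 and 6506 normalised counts in Col6a1+ libraries and between 20676 and 34538 in Col6a1- libraries. Epcam, the surface protein used to remove epithelial cells, was at 1074, 884 and 615 in Col6a1+ and at 3107, 4129 and 3730 in Col6a1- CAFs. In each Col6a1- library the epithelial sum exceeded that of 7 pan-fibroblast genes, which lay between 8530 and 15537, whereas in Col6a1+ libraries the fibroblast genes summed to between 41474 and 45489. These sums are of 3′ counts and not per length. In bulk samples fewer cells of a type cannot be told apart from less RNA per cell.

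Rspo3, a ligand that supports crypt stem cells from the stroma, had 0, 1 and 0 normalised counts in Col6a1+ libraries 1, 2 and 3 and 11, 13 and 1 in Col6a1- libraries. Both higher values were in Col6a1- CAFs, but Col6a1- replicate 3 was level with Col6a1+ replicate 2. The sums were 1 against 25 normalised counts, a ratio of 25 with a 95% exact interval of 4.09 to 1026. This interval treats normalised counts as reads and pools the libraries of each group. It leaves out the spread between libraries and is no test of a difference between the groups. The log2 fold change was -2.46 (95% interval -4.65 to -0.28), with an adjusted p of 0.234, which did not pass the test. With a pseudocount of 0.1 in place of 1 it was -4.61 (adjusted p = 0.285), so at these counts the size of the log2 fold change depends on the pseudocount.

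Rspo1, first known for driving growth of the gut epithelium when given as a protein, had 0, 3 and 0 normalised counts in Col6a1+ CAFs and 9, 5 and 0 in Col6a1- CAFs. Its sums of 3 and 14 gave a ratio of 4.67 (95% exact interval 1.30 to 25.3, with the same limits as for Rspo3). Its log2 fold change of -1.30 did not pass the test (SE 1.04, adjusted p = 0.603). Rspo2, which acts in limb and lung development, stayed at 0 or 1 in every library, so no ratio is given, and its fitted log2 fold change depends on the pseudocount. Rspo4, the ligand needed for nail formation, had 2, 0 and 0 in Col6a1+ and 0, 0 and 5 in Col6a1- CAFs, with an adjusted p of 0.835. A difference in Rspo2 or Rspo4 was not detectable at this depth.

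The 4 R-spondins added up to 2, 5 and 1 normalised counts in Col6a1+ libraries and to 20, 18 and 6 in Col6a1- libraries. The sums did not overlap, but the highest Col6a1+ sum was 5 and the lowest Col6a1- sum was 6. Each of the 4 genes overlapped on its own, and 0 were called. Of single genes tested, 11.6% had each Col6a1- library above each Col6a1+ library. Rspo1 and Rspo3 made up all of the Col6a1- counts in replicates 1 and 2, and Rspo4 made up 5 of the 6 counts in replicate 3. Trophocyte markers, of cells known as a source of R-spondins below the crypt, moved the same way. Of 7 such genes, 2 were called lower in Col6a1+ CAFs, Cd34 with 11, 15 and 24 against 96, 172 and 165 and Cd81 with 144, 149 and 278 against 563, 678 and 669 normalised counts. The list summed to between 713 and 996 in Col6a1+ and between 1545 and 2038 in Col6a1- libraries. The part of trophocyte or epithelial RNA in the R-spondin counts was not tested.

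**Figure D1:**
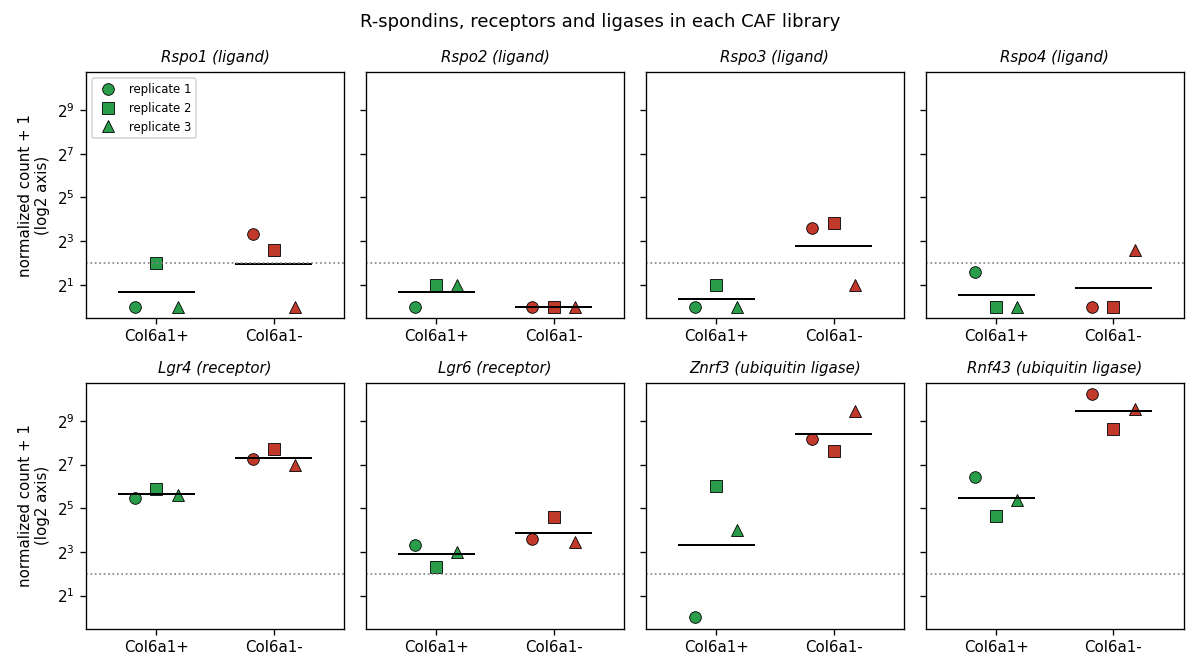
Normalised read counts plus 1 (log2 axis) of the 8 genes in each Col6a1+ and Col6a1- CAF library, with horizontal bars at the geometric means of the groups and the dotted line at the floor of 3 counts. The R-spondins lie around the floor, whereas Lgr4, Lgr6, Znrf3 and Rnf43 are higher in each Col6a1- library than in any Col6a1+ library.

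Lgr4, the most widely expressed of the R-spondin receptors, had 43, 58 and 47 normalised counts in Col6a1+ CAFs and 151, 208 and 126 in Col6a1- CAFs. Each Col6a1- library was above each Col6a1+ library, with means of 49.3 ± 7.77 and 162 ± 42.0 (SD, n = 3), a 3.28-fold difference. The log2 fold change was -1.67 (SE 0.39, 95% interval -2.53 to -0.81, adjusted p = 0.0365). The call was lost with the replicate block (adjusted p = 0.0916) and when any 1 of the 6 libraries was left out (adjusted p 0.0581 to 0.155). Over all alternatives the adjusted p ranged from 0.0171 to 0.155.

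Lgr6, a receptor known from skin and hair follicle stem cells, had 9, 4 and 7 normalised counts in Col6a1+ and 11, 23 and 10 in Col6a1- CAFs. The groups did not overlap, but the gap between them was 1 normalised count. Its means of 6.67 ± 2.52 and 14.7 ± 7.23 (SD, n = 3) differed 2.20-fold, and its log2 fold change of -0.995 (95% interval -2.91 to 0.92) had an adjusted p of 0.612. With Lgr4, Znrf3 and Rnf43 it brought the members whose Col6a1- libraries all lay above the Col6a1+ libraries to 4 of 8, against 11.6% of the genes tested. The opposite order, each Col6a1+ library above each Col6a1- library, was seen in 0 members and in 7.91% of the genes tested.

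Znrf3, a ligase that removes Frizzled receptors, had 0, 63 and 15 normalised counts in Col6a1+ CAFs and 285, 197 and 696 in Col6a1- CAFs. It varied widely within both groups, with 0 in Col6a1+ replicate 1, the library with the fewest genes detected, yet the groups stayed apart. The means were 26 ± 32.9 and 393 ± 266 (SD, n = 3), a 15.1-fold difference, and the log2 fold change was -5.08 (SE 1.21, 95% interval -7.76 to -2.40, adjusted p = 0.0407). Without Col6a1+ replicate 1 the log2 fold change was -3.41 and the call was lost (adjusted p = 0.0688), and it was also lost with the block (adjusted p = 0.162). Of the 6 fits that left out 1 library, only that without Col6a1+ replicate 2 kept the call (adjusted p = 0.0438), and the others gave up to 0.316.

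Rnf43, the paralog of Znrf3 with the same role, had 84, 24 and 41 normalised counts in Col6a1+ CAFs and 1188, 401 and 742 in Col6a1- CAFs. The lowest Col6a1- value was several times the highest Col6a1+ value. The means of 49.7 ± 30.9 and 777 ± 395 (SD, n = 3) differed 15.6-fold, and the log2 fold change was -3.99 (SE 0.52, 95% interval -5.13 to -2.84, adjusted p = 0.00232). The call was lost without Col6a1- replicate 1 (adjusted p = 0.0925) or replicate 3 (adjusted p = 0.0868) and with the block (adjusted p = 0.0612). In a test limited to 13515 genes that averaged 10 or more normalised counts, the block called Rnf43 (adjusted p = 9.15e-04), Znrf3 (0.0178) and Lgr4 (0.0210) as lower, beside 6.44% of those genes.

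The Rnf43 counts are uncertain in part because another annotated gene lies inside it. 1110028F11Rik, a sense-intronic transcript on the same strand (mm10, chromosome 11, 87701396 to 87705331), had 0, 5 and 8 normalised counts in Col6a1+ and 378, 139 and 465 in Col6a1- CAFs, and how reads were split between them is not given in the sources used here. The other genes that overlap a member had between 0 and 3 normalised counts in each library. Together the 2 ligases summed to 84, 87 and 56 normalised counts in Col6a1+ and to 1473, 598 and 1438 in Col6a1- libraries. The 2 receptors among the members, Lgr4 and Lgr6, summed to 52, 62 and 54 and to 162, 231 and 136. The receptor Lgr5 is not a member, is left out of these sums and is given below with the β-catenin targets.

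On mm10, Lgr4 (ENSMUSG00000050199) spans chr2:109917647-110014257 on the plus strand and Rnf43 (ENSMUSG00000034177) spans chr11:87662722-87735539 on the plus strand. Znrf3 (ENSMUSG00000041961) spans chr11:5276324-5444847, Lgr6 chr1:134983301-135105276, Rspo2 chr15:43020811-43170818 and Rspo3 chr10:29452416-29535867, all on the minus strand. Rspo1 lies at chr4:124986430-125009099 and Rspo4 at chr2:151842927-151874668, both on the plus strand. Upstream windows of 250 bases from RefSeq (GRCm38.p6) matched 5 of the 8 members, which were Rspo1, Rspo4, Lgr4, Lgr6 and Rnf43. The windows of Lgr4 and Rnf43 are shown because these members were lower in Col6a1+ CAFs and both have an entry. The Lgr4 window is chr2:109917397-109917646 and ends at the gene's start, and that of Rnf43 is chr11:87699647-87699896, which lies inside the gene before its second RefSeq start and overlaps no annotated exon. Capitals mark CG dinucleotides.
Lgr4: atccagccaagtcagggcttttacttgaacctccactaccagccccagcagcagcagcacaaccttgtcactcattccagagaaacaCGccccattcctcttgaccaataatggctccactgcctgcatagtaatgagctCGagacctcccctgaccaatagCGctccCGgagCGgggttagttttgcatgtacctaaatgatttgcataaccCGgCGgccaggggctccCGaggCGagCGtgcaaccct
Rnf43: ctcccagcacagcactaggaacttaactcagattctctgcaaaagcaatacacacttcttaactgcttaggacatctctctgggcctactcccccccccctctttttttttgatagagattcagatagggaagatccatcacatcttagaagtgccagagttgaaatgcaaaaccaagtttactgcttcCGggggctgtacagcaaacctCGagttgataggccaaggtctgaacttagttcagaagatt
The Lgr4 window had 10 CG dinucleotides and 55.6% G and C, and the Rnf43 window had 2 and 45.2%, against medians of 6 and 52.4% over all such windows. Forms of the TCF/LEF motif were searched on both strands, namely the word CTTTGAT with its variant CTTTGAA, and the word CTTTGTT with its variant CTTTGTA, which all share their first letters. They were found in 0 of the members' windows and in 14.8% of the 32851 windows, which describes only these letters in these windows. Rnf43 has another window in the table, before its first RefSeq start, which overlaps an annotated exon and is not shown. It had 8 CG dinucleotides and 44.4% G and C.

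Levels of different genes were compared as normalised counts per kb of gene model, although 3′ libraries read mainly the transcript's 3′ end. In Col6a1- CAFs the level per kb was 102 ± 51.9 for Rnf43, 55.2 ± 37.5 for Znrf3 and 29.4 ± 7.65 for Lgr4 (mean ± SD, n = 3). Rnf43 and Znrf3 overlapped, as did Znrf3 with Lgr4, whereas the lowest Rnf43 level (52.7) was above the highest Lgr4 level (37.9). Rspo3 (2.81), Rspo1 (2.55) and Lgr6 (2.39) followed and overlapped one another, and Rspo4 (0.597) and Rspo2 (0) were last.

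In Col6a1+ CAFs no order was resolved among the upper members. Lgr4 was at 8.98 ± 1.41 normalised counts per kb, Rnf43 at 6.53 ± 4.06 and Znrf3 at 3.66 ± 4.63 (mean ± SD, n = 3), and these 3 genes overlapped. Lgr6 was at 1.09 and below Lgr4 in every library of both groups. The R-spondins ranged from 0.112 for Rspo3 to 0.547 for Rspo1 per kb.

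**Figure D2:**
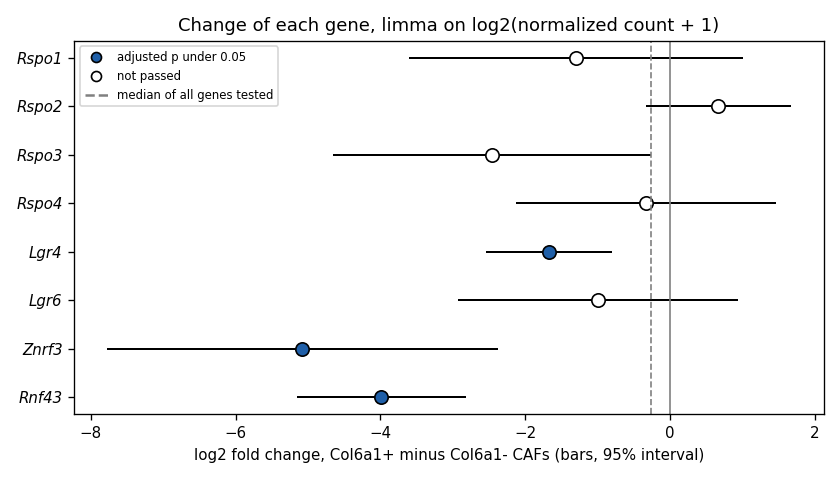
Log2 fold change (Col6a1+ minus Col6a1- CAFs) of the 8 genes from limma with 95% intervals, with filled points for an adjusted p under 0.05. The intervals of Lgr4, Znrf3 and Rnf43 lie below 0 and pass the test, and that of Rspo3 (-4.65 to -0.28) lies below 0 without passing it after adjustment.

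The expression patterns closest to each member over the 6 libraries were sought among 8437 genes with a mean of at least 50 normalised counts, by the root mean square difference of centred log2 levels. Nearest to Rnf43 was Axin2, a feedback scaffold of the β-catenin destruction complex (difference 0.296), and then Spock2, a secreted proteoglycan (0.301). Nearest to Lgr4 were Clcn2, a chloride channel (0.0692), and Cyba, a subunit of the NADPH oxidase (0.161). Lgr6 was closest to Misp (0.182) and Ms4a8a (0.208), and Znrf3, at the larger distances of 0.517 and 0.597, to Ralgps2 and Hid1. Cyba, Axin2 and Spock2 were called lower in Col6a1+ CAFs (adjusted p = 0.0612 for each with the replicate block), and the other 5 of these 8 genes did not pass the test.

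Target genes of β-catenin, which report on the pathway that R-spondins amplify, were mostly lower in Col6a1+ CAFs. Of 13 target genes, 7 were called lower in Col6a1+ CAFs and 1 was called higher. The list's median log2 fold change was -3.32, farther from 0 than that of the other 3 pathway lists. Axin2 had 73, 29 and 25 against 925, 324 and 733 normalised counts (log2 fold change -3.97, adjusted p = 0.00232). Nkd1, an inhibitor of Dishevelled, had 214, 173 and 248 against 4567, 1314 and 2842 (log2 fold change -3.61, adjusted p = 0.00163). Notum, a secreted enzyme that inactivates Wnt ligands, had 63, 18 and 56 against 1453, 393 and 793 (log2 fold change -4.23, adjusted p = 0.00279). These 3 genes, like Rnf43 and Znrf3, encode negative feedback on the pathway, and in each of them the lowest Col6a1- library exceeded the highest Col6a1+ library. They were named for their small p, so this order follows largely from the choice. It was seen in 10 of the 13 targets and in 11.6% of the genes tested.

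Lgr5, a crypt stem cell marker and itself an R-spondin receptor, had 2, 26 and 3 normalised counts in Col6a1+ and 75, 74 and 133 in Col6a1- CAFs (log2 fold change -3.73, adjusted p = 0.0353). Apcdd1, a membrane inhibitor of Wnt, Sp5 and Ascl2, transcription factors, were the other targets called lower. Cd44, an adhesion receptor, was the target called higher, with 592, 645 and 710 in Col6a1+ against 165, 187 and 234 in Col6a1- CAFs (log2 fold change 1.74, adjusted p = 0.00771). Myc, Ccnd1, Ephb2, Sox9 and Tnfrsf19 did not pass the test.

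Of 16 Frizzled receptors and Wnt co-receptors, 1 was called higher and 1 lower, and the median was -0.31 on the log2 scale. Fzd4 had 246, 106 and 169 normalised counts in Col6a1+ and 15, 11 and 14 in Col6a1- CAFs (log2 fold change 3.54, adjusted p = 0.00349). Fzd10 was on the other side, with 0, 4 and 3 against 89, 72 and 165 (log2 fold change -5.24, adjusted p = 0.00718). Fzd5 (-2.23, adjusted p = 0.0680) and Fzd6 (-3.23, adjusted p = 0.0734) did not pass. The Frizzled receptors called thus went in opposite directions, while both ligases that act on Frizzled proteins were lower in Col6a1+ CAFs.

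Of 20 genes for Wnt secretion and the relay to β-catenin, 2 were called lower in Col6a1+ CAFs and 0 higher, and the median was -0.04 on the log2 scale. Ctnnb1, which encodes β-catenin, had means of 2734 in Col6a1+ and 7085 in Col6a1- CAFs (log2 fold change -1.37, adjusted p = 0.0209). Tcf7, a nuclear partner of β-catenin, had 11, 17 and 19 against 163, 60 and 106 (log2 fold change -2.65, adjusted p = 0.0230). Its relatives Lef1 (log2 fold change -2.22, adjusted p = 0.0734) and Tcf7l1 (0.83, adjusted p = 0.244) did not pass.

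Heparan sulfate proteoglycans, which bind R-spondins and Wnt ligands at the cell surface, were a list of 10 genes with 1 called higher and 0 lower. This was Sdc2, with 447, 1212 and 904 normalised counts in Col6a1+ and 115, 265 and 102 in Col6a1- CAFs (log2 fold change 2.42, adjusted p = 0.0150). Sdc3 (2.36, adjusted p = 0.0595), Gpc4 (-1.18, adjusted p = 0.173) and Gpc2 (-2.20, adjusted p = 0.324) did not pass. The list's median was -0.43. The replicate block called no gene of these 4 pathway lists or of the marker lists, and it gave the 13 pathway genes called above adjusted p-values of 0.0612 to 0.144. Limited to the 13515 genes that averaged 10 or more counts, the block called 7 target genes lower and 1 higher, 2 Frizzled receptors or co-receptors lower and 1 higher, 2 relay genes lower, and 2 proteoglycans higher.

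**Figure D3:**
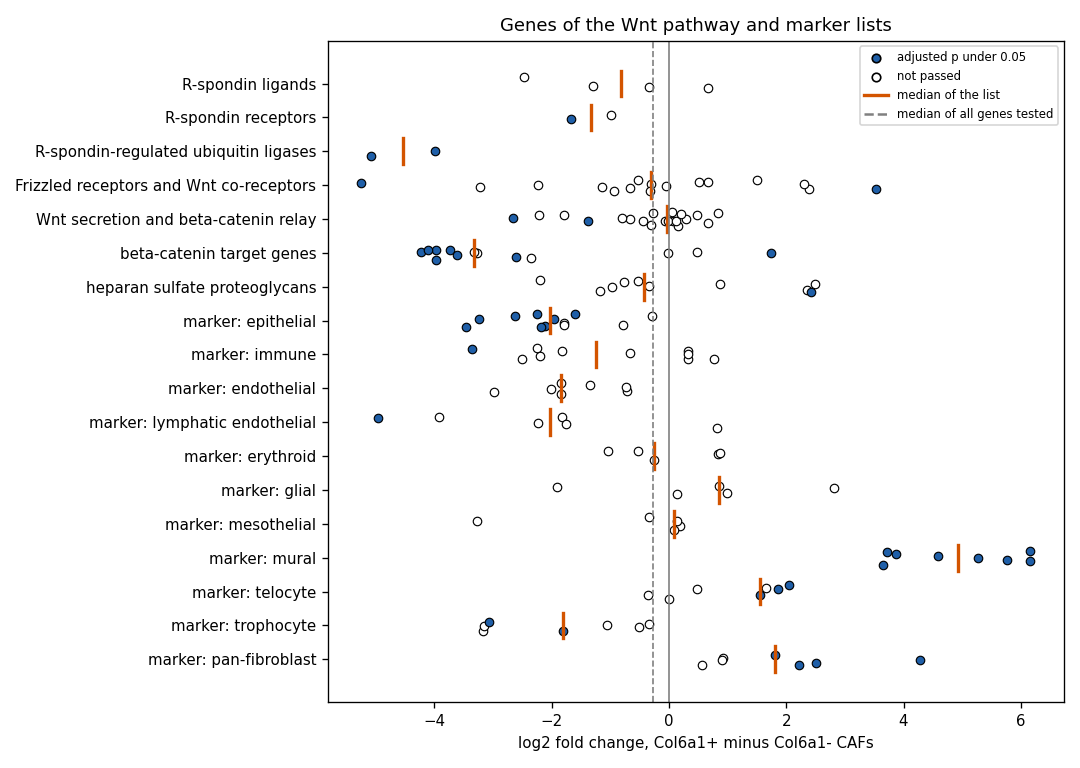
Log2 fold change (Col6a1+ minus Col6a1- CAFs) of each gene in the R-spondin, Wnt pathway and cell type marker lists, with filled points for an adjusted p under 0.05, an orange bar at each list's median and a dashed line at the median of all genes tested (-0.27). The β-catenin targets and the ligases lie mostly left of the dashed line together with the epithelial markers, whereas mural and pan-fibroblast markers lie to its right.

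Markers of several other cell types also differed between the groups. All 8 mural markers were called higher in Col6a1+ CAFs, with sums of 50276 to 103202 against 1460 to 3859 normalised counts. Of 7 telocyte markers, 3 were called higher, and of 7 pan-fibroblast genes, 4 were. Immune markers summed to between 34 and 71 in Col6a1+ and 268 and 454 in Col6a1- libraries, of which S100a8 alone was called lower and Cd3e, Cd79a and Adgre1 were between 0 and 3 in each library. Endothelial markers summed to 72 to 171 against 133 to 318 with 0 of 7 called, and of 6 lymphatic endothelial markers, Prox1, which epithelial cells can also express, was called lower. Of the erythroid, glial and mesothelial markers, 0 were called, and Lrrn4 was at 0 in each library. With the replicate block the marker genes called here and above had adjusted p-values of 0.0612 to 0.153.

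Epithelial markers differed between the groups in the same direction as the lower members. Each member was therefore also set against the sum of these markers, a measure chosen after the levels were seen. An exact permutation test of 3 against 3 libraries cannot give a p under 0.1, so these values are given as a description. The summed markers were 4.26 times as high in Col6a1- as in Col6a1+ CAFs. Lgr4 came to 7.39, 8.99 and 7.22 counts per 1000 epithelial marker counts in Col6a1+ and to 7.30, 6.02 and 5.07 in Col6a1- CAFs, so the groups overlapped and the ratio of the means, Col6a1- over Col6a1+, was 0.779. For Lgr6 the ratio was 0.493, again with overlap. The R-spondin ratios, 6.12 for Rspo3, 1.25 for Rspo1 and 0.585 for Rspo4, rest on few counts and their libraries overlapped, and Rspo2 was at 0 in Col6a1- CAFs.

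For the ligases the ratio of the means stayed above 1. Rnf43 came to 14.4, 3.72 and 6.30 counts per 1000 in Col6a1+ and to 57.5, 11.6 and 29.8 in Col6a1- CAFs, a ratio of 4.04, and Znrf3 to 0, 9.76 and 2.31 against 13.8, 5.70 and 28.0, a ratio of 3.93. For both ligases the groups overlapped in 1 Col6a1- library, replicate 2. Of the 4 target genes set against the sum, Axin2, Nkd1 (ratio 3.67) and Lgr5 (2.30) overlapped between the groups, and Notum (5.11) did not. Whether epithelial RNA sets the difference of any member between the CAFs was not tested.

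**Figure D4:**
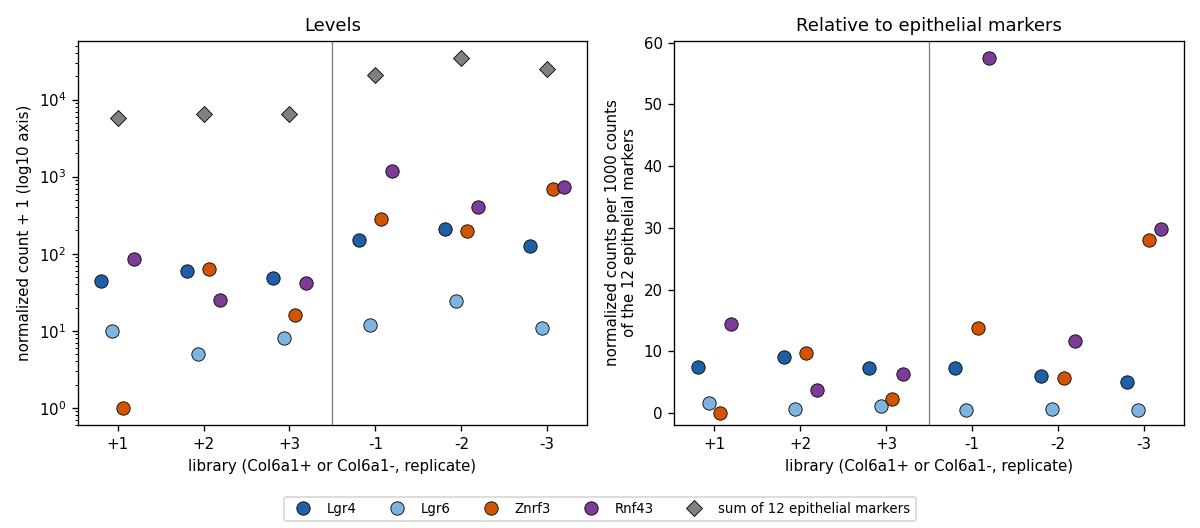
Left, normalised read counts plus 1 (log10 axis) of Lgr4, Lgr6, Znrf3, Rnf43 and the sum of 12 epithelial markers in each library; right, the same 4 genes per 1000 counts of that sum. The summed markers and the genes are all higher in Col6a1- libraries on the left, whereas on the right the groups overlap for each of the 4 genes.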

How the data were processed

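The 3′ mRNA sequencing libraries of Col6a1+ (GFP+) and Col6a1- (Tomato+) CAFs, 3 each, were grouped and numbered by their labels. The authors prepared QuantSeq libraries, mapped the reads to mm10 with TopHat2 and then Bowtie2, summarised and normalised the read counts of genes through metaseqR with GenomicRanges and DESeq, the scaling step itself not being given in the sources used here. They deposited the log2 of the normalised count plus 1 for 49548 genes, which gave whole normalised counts in 100% of values (tolerance 1e-06). The deposited table also holds the normalised counts divided by the authors' gene model length, from which that length was recovered for 26402 genes. Its fold changes, p-values and false discovery rates were not used. Sums of normalised counts carry the authors' scaling and are not read numbers. The floor of 3 counts was set by choice and is not a measured limit of detection.

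The members and lists were chosen with earlier results of these data known. limma 3.58.1 in R 4.3.3 (lmFit, eBayes with trend) was run on 26402 genes, those with 1 or more normalised counts in all 6 libraries together, with a pseudocount of 1, Benjamini-Hochberg adjustment over all genes, two-sided, 6.48 prior and 4 residual degrees of freedom. The test was checked on simulated data. Genes named are the members, Col6a1, genes of each list with the smallest p or named with their list's count, and the 2 closest patterns for each member with a mean of at least 10 normalised counts. The libraries are pools of tumors, and p-values measure the spread between pools.

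Deviations from group means over 13515 genes correlated at 0.245, 0.125 and 0.144 between libraries of the same number and at -0.245 to 0.150 between others. Since each same-number correlation exceeded 0.1, the numbers were read as pairs. The correlation of Col6a1+ replicate 2 with Col6a1- replicate 3 (0.150) nevertheless exceeded 0.125 and 0.144, so these values cannot settle the pairing. If both groups were sorted from each of the authors' 3 pools, the libraries are paired, but which libraries share a pool is not stated. The calls are from the fit without a block, which treats the libraries as independent, and the replicate block is given as an alternative. Alternatives were library size alone, 3 filters, a pseudocount of 0.1, limma-voom, the replicate block without and with a mean of at least 10, and leaving out each library. Python 3.11.15, NumPy 2.4.6, pandas 2.3.3, SciPy 1.17.1 and Matplotlib 3.10.9 were used for the rest.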

Additional observations from a re-analysis of the deposited data

How the results depend on the processing

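Over the 8 members and their alternatives, 76 values kept direction and side of the threshold, 21 kept direction but lost the call and 1 reversed. Of the 76, Lgr4 held 5, Znrf3 5 and Rnf43 10, and the rest were of members not called, which stayed uncalled. The 21 lost calls were all of Lgr4, Znrf3 and Rnf43. The number of genes called, 1220, became 28 with no filter on low values, 0 with the replicate block and 1852 with the block and a mean of at least 10, and 12 to 895 when 1 library was left out, with the lowest count without Col6a1- replicate 1. Library size alone (1344), a minimum of 10 counts in every library (1154) or on average (1423), a pseudocount of 0.1 (897) and limma-voom (1569) stayed within 1.5 times. The no-filter fit added 23146 genes at 0 and its prior degrees of freedom were 1.24. Without a filter, the log2 fold changes of Lgr4 (-1.67), Znrf3 (-5.08) and Rnf43 (-3.99) were as before, but the calls were lost. The same held with the replicate block, where they were again -1.67, -5.08 and -3.99, and the block changed no call of the other members. A pseudocount of 0.1 lost the calls of Lgr4 (-1.69) and Znrf3 (-6.22), and moved the uncalled values of Rspo3 to -4.61, Rspo1 to -2.41 and Rspo2 to 2.31. Leaving out 1 library, with the filter applied to the rest, gave log2 fold changes of -1.84 to -1.48 for Lgr4, -6.41 to -3.41 for Znrf3, -4.45 to -3.57 for Rnf43, -1.22 to -0.64 for Lgr6, -3.36 to -1.96 for Rspo3, -2.29 to -0.63 for Rspo1, 0.50 to 1.00 for Rspo2 and -0.86 to 0.53 for Rspo4. Rspo4 was the value that reversed, without Col6a1- replicate 3 (0.53), since that library held its 5 counts. The cause of the other lost calls was not tested. A filter of 10 in every library left only Lgr4 and Rnf43 of the members, and a mean of 10 left these with Lgr6 and Znrf3, so the others have no value there. Depth limits the R-spondins, which lie around the chosen floor of 3 counts.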

Other observations

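Among the Col6a1- libraries, Rnf43 was highest in replicate 1 (1188 normalised counts) and lowest in replicate 2 (401). Axin2 (925 and 324), Nkd1 (4567 and 1314), Notum (1453 and 393), Apcdd1 (3143 and 871) and Spock2 (6033 and 1260) had their highest and lowest values in the same libraries. Other targets of the list differed, with Lgr5 (75, 74 and 133), Sox9 (782, 727 and 1206) and Tnfrsf19 (71, 20 and 99) highest in replicate 3 and Ascl2 (36, 24 and 21) lowest there. The summed epithelial markers were opposite to Rnf43, with 20676 in replicate 1 and 34538 in replicate 2, as was Epcam (3107 and 4129). Znrf3 had its highest value in replicate 3 (696) and Lgr4 in replicate 2 (208), where the epithelial sum was also highest. These values rest on 3 libraries, were picked out after they were seen and were not tested.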
